A study of Mus musculus with 7 samples.

Results

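Receptors for serotonin, acetylcholine and noradrenaline carry the signals of the ascending modulatory systems, whose fibres reach the whole forebrain. The genes described here are the 43 protein-coding genes named in the mouse annotation as serotonin receptors (symbols beginning *Htr1* to *Htr7*, without *Htr3a*), nicotinic acetylcholine receptor subunits (*Chrna*, *Chrnb*, *Chrnd*, *Chrne* and *Chrng*), muscarinic acetylcholine receptors (*Chrm1* to *Chrm5*) and adrenergic receptors (*Adra* and *Adrb*), out of 47729 genes in the table, 22048 of them protein-coding. They comprised 13 serotonin receptors, 16 nicotinic subunits, 5 muscarinic receptors and 9 adrenergic receptors. One more symbol, *Chrna1os*, fitted the naming rule but belongs to an antisense RNA and was left out.

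Nicotinic receptors are ion channels built from several subunits, so that which subunits a neuron makes sets which channels it can assemble. The other genes of this set encode receptors that act through G proteins, except *Htr3b*, a subunit of the serotonin-gated ion channel. In the cortex and hippocampus these receptors sit on pyramidal cells and on several classes of interneuron, at the cell body, on dendrites and on axon terminals, and they set how the circuit responds to arousal, attention and stress.

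Forebrain RNA was sequenced at postnatal day 15 from 4 pools of *Lhx6*+/- mice (control) and 3 pools of *Lhx6*-/- mice (mutant), F1(C57BL/6 X 129Sv) animals carrying the Lhx6tm2Vpa allele, which the controls carried on one chromosome. *Lhx6* encodes a LIM-homeodomain transcription factor needed by the interneurons born in the medial ganglionic eminence (MGE). Each pool held 2 animals, so replicate error here is pool-to-pool variation, and no wild-type or treated mice were compared. Counts are expected counts scaled to a common library size and are called normalized counts below; libraries are named by the number in their column (controls 2, 3, 10 and 11, mutants 5, 12 and 13), and errors are SD with n = 4 control and n = 3 mutant libraries unless called SE. Genes were tested when at least 3 libraries held 10 counts, with edgeR's quasi-likelihood test and Benjamini-Hochberg adjustment over all 19684 genes tested, and a gene is said to have risen or fallen in mutants when its adjusted p was 0.05 or less.

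Totals ran from 32556304 to 38069151 expected counts a library. *Lhx6* itself was at 476 to 615 normalized counts in controls and at 70.1 to 76.6 in mutants, which matches the genotype labels. The first principal component separated libraries 2, 3 and 5 from libraries 10 to 13, so every genotype difference below was also computed within each of these runs of library numbers. Levels in CPM are counts scaled to the library's total as adjusted by edgeR's normalization. The summed level of 4 Y-linked genes was 105 and 128 CPM in controls 2 and 3 and 2.56 and 2.22 CPM in controls 10 and 11. It was 65.6, 120 and 62.8 CPM in mutants 5, 12 and 13. Among controls the sex of the pool and the run of library numbers therefore cannot be told apart, and the 3 mutant libraries all held Y-linked RNA although 1 mutant pool is labelled as 2 females, so 1 library did not match its sex label. Forebrain markers were present in every library (*Neurod6* at 1970 to 2866 normalized counts), and 6 Hox genes of hindbrain and spinal cord stayed at or near 0, with no more than 5.02 normalized counts in any library.

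Of the 43 receptor genes, 37 passed the filter and 6 rose or fell between genotypes, which is 16.2% of those tested beside 4.85% of all genes tested. Those that rose were *Chrnb3*, *Chrna1*, *Adra1b* and *Adra1d*, 4 members against 2.97% of all genes, and those that fell were *Htr1a* and *Chrna4*, 2 members against 1.87% of all genes. The genotypes did not overlap, every mutant library lying above or below every control library, for 16 of the 37 (43.2%, beside 19.7% of all genes tested), 8 higher and 8 lower in mutants. An unadjusted p of 0.05 or less was found for 17 of the 37 (45.9%, beside 18.2%). The median log2 fold change of the 37 was -0.00, with 18 positive and 19 negative values, and that of all genes tested was -0.01. In bulk tissue, fewer cells that make a transcript and less of it in each cell cannot be told apart, and that holds for every difference below.

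**Figure D1:**
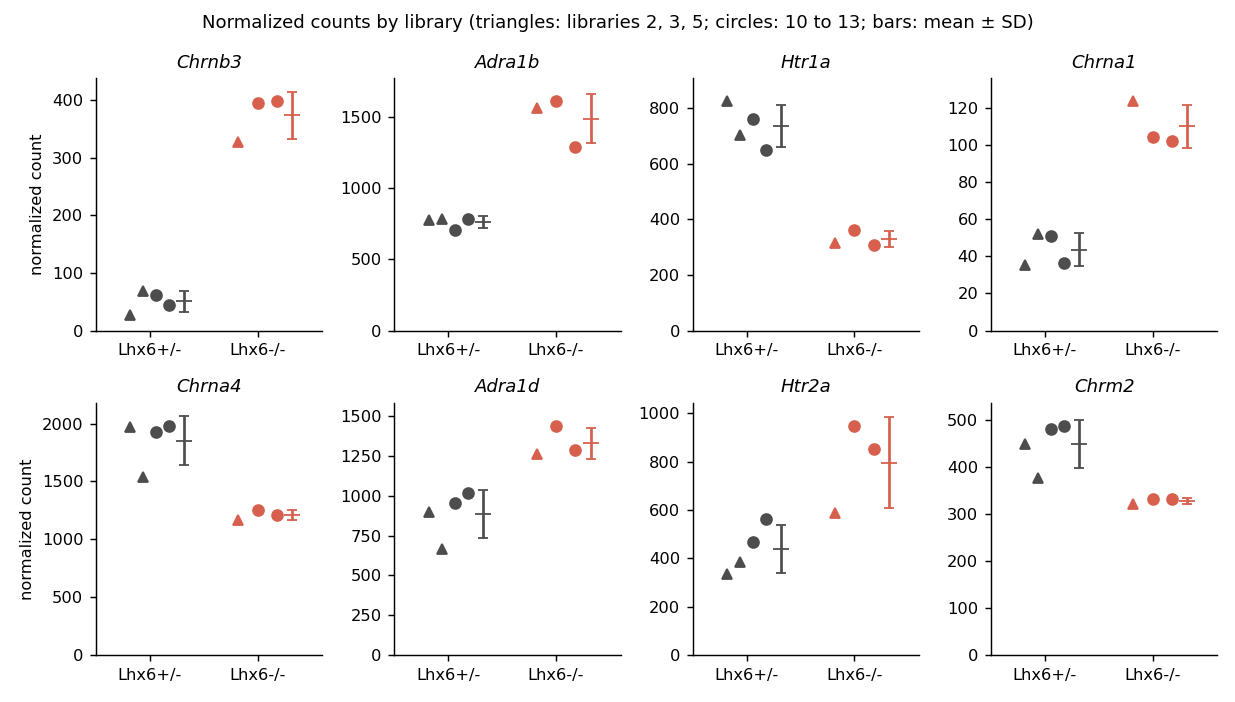
Normalized counts (vertical axis, starting at 0) of the 6 receptor genes that rose or fell and the next 2 by unadjusted p, in *Lhx6*+/- (grey) and *Lhx6*-/- (red) libraries; triangles are libraries 2, 3 and 5, circles libraries 10 to 13, and bars the mean and SD. In all 8 panels the genotypes did not overlap, and *Chrnb3* showed the largest ratio between them, 27.4 to 69.3 in controls against 327 to 398 in mutants.

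The windows around the transcript starts are shown for the 3 genes whose call held under all 16 alternative fits and for which RefSeq sequence was at hand, *Chrna1*, *Adra1b* and *Htr1a*. *Chrnb3* and *Adra1d* had no entry. Each window runs from 250 bases before the start to 50 bases after it, 5′ to 3′ on the gene's strand, in GRCm38.p6, and capitals mark a match to the AP-1 site TGANTCA, the element bound by Fos and Jun proteins, read on both strands. For *Adra1b*, which has 2 starts in the table, the more distal is shown.
*Chrna1*, chr2:73580289-73580588, minus strand: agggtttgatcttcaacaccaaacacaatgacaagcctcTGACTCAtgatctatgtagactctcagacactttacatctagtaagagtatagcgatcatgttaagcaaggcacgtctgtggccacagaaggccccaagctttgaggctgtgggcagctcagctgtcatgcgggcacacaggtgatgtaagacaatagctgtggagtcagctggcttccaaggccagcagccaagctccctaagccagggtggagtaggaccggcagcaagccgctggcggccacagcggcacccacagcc
*Adra1b*, chr11:43901188-43901487, minus strand: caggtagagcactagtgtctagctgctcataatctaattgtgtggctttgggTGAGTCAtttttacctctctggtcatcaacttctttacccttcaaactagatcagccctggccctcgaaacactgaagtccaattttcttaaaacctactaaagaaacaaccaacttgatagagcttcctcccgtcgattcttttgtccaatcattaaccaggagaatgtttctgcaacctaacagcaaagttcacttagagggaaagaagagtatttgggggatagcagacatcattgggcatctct
*Htr1a*, chr13:105443443-105443742, plus strand: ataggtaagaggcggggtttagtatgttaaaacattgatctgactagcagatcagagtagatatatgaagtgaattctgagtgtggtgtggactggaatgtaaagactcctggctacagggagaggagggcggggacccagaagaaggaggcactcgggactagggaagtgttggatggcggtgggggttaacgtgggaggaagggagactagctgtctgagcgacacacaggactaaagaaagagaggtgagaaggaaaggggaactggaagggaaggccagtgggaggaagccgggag
The match in *Chrna1* (TGACTCA) began 211 bases before the start and that in *Adra1b* (TGAGTCA) 198 bases before it, and the *Htr1a* window held none. The window of the other *Adra1b* start (chr11:43836440-43836739) and that of *Chrna4* (chr2:181039128-181039427), which are not printed, held none either. Of 32851 windows of this length in the mouse table, 7.81% held TGANTCA, and of the 36 windows of the 32 members with an entry, 4 did, those of *Adra1b*, *Chrna1*, *Htr2b* and *Htr2c*. The letters TGACG that begin a cAMP response element stood in 20.8% of all windows and in 6 of the 36, and the letters TAATTA, a core that homeodomain proteins bind, in 5.29% of all windows and 3 of the 36 (*Chrm5*, *Chrnb1* and *Htr2a*). None of the 3 windows printed held TGACG or TAATTA. These matches describe the sequence and are not evidence of binding.

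Among nicotinic subunits, *Chrnb3* showed the largest change of all 37 genes. Its product is an accessory subunit that joins other subunits in channels and cannot form a channel on its own. *Chrnb3* (chromosome 8, 27368711 to 27399729, plus strand) counted 27.4, 69.3, 61.4 and 44.7 in controls 2, 3, 10 and 11 and 327, 395 and 398 in mutants 5, 12 and 13. All mutants lay far above all controls. The log2 fold change was 2.87 (SE 0.27), or 7.32-fold, with an edgeR adjusted p of 0.000981, and the runs gave 2.74 (libraries 2, 3 and 5) and 2.89 (libraries 10 to 13). *Chrna6*, the alpha subunit with which *Chrnb3* is known to assemble in dopaminergic and retinal neurons, is the neighbouring gene on the opposite strand (27403214 to 27413944). It counted 19.7, 53.2, 36.5 and 22.4 in controls and 35.4, 39.3 and 45.4 in mutants, overlapping, with a log2 fold change of 0.28 (SE 0.36, edgeR adjusted p = 0.765). Per length, *Chrnb3* stood at 0.310 ± 0.114 CPM per kilobase of exon in controls and 2.28 ± 0.247 in mutants, while *Chrna6* stood at 0.318 ± 0.149 and 0.387 ± 0.0488.

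*Chrnb3* is known for its high level in the medial habenula, a small nucleus next to the thalamus. Of 8 habenula markers, 6 were tested and 1 was called, *Gpr151*, an orphan receptor of habenular axons, which rose from 17.6 to 24.4 normalized counts in controls to 52.1 to 59.4 in mutants (log2 fold change 1.38, SE 0.21, edgeR adjusted p = 0.0094). *Tac2*, another habenula gene, was at 186 to 245 in controls and 190 to 225 in mutants, and *Pou4f1* and *Irx3* were below the filter. The summed level of the list was 110 to 137 CPM in controls and 101 to 114 CPM in mutants, overlapping. That sum is weighted towards the most abundant genes of the list, and *Tac2* and *Gpr151* made up only a small part of it. Whether the habenula content of the libraries differed was not tested.

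*Chrna1*, the ligand-binding subunit of the muscle-type receptor, rose from a low level. *Chrna1* (chromosome 2, 73563215 to 73580338, minus strand) counted 35.1, 52.2, 50.8 and 36.6 in controls and 124, 105 and 102 in mutants. The lowest mutant was above every control, and the log2 fold change was 1.33 (SE 0.21, 2.51-fold, edgeR adjusted p = 0.00934). Its partners in the muscle receptor were not called: *Chrnb1* counted 39.2 to 54.7 in controls and 51.8 to 60.3 in mutants (log2 fold change 0.23, SE 0.21, edgeR adjusted p = 0.646), and *Chrnd*, *Chrne* and *Chrng* had no more than 7 counts in any library and were not tested. Of 8 skeletal muscle markers, 5 were tested and 1 rose, *Myh8*, a developmental myosin heavy chain (log2 fold change 1.78, SE 0.22, edgeR adjusted p = 0.00408). The summed level of that list was 16.9 to 19.4 CPM in controls and 25.3 to 28.8 CPM in mutants. *Ckm*, *Tnnt3* and *Myog*, which define muscle fibres and their precursors, were at or near 0, with no more than 9.87 normalized counts in any library.

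*Chrna4* and *Chrnb2* form the most widespread nicotinic channel of the brain. *Chrna4*, the alpha subunit, fell: it counted 1971, 1534, 1925 and 1982 in controls and 1170, 1255 and 1208 in mutants. The highest mutant was below the lowest control, control 3. The log2 fold change was -0.61 (SE 0.10), or 65.4% of the control level, with an edgeR adjusted p of 0.0128. Leaving out 1 mutant pool ended the call, at adjusted p of 0.0553 without mutant 5, 0.0534 without mutant 12 and 0.0757 without mutant 13, with log2 fold changes from -0.64 to -0.58. *Chrnb2*, the beta subunit, counted 2589, 2533, 2548 and 2535 in controls and 2609, 2680 and 2436 in mutants. Mutants lay on both sides of the controls, and the log2 fold change of 0.01 had the smallest SE of the set (0.07, edgeR adjusted p = 0.951). Of the exon bases of *Chrnb2*, 16.3% overlap *Adar* on the opposite strand, and whether the counting used strand is not given in the sources used here.

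*Chrna2*, which in the hippocampus and cortex marks somatostatin interneurons with far-reaching axons, had a log2 fold change beyond 1 without a call. It counted 38.4, 19.1, 47.0 and 50.8 in controls and 12.5, 16.6 and 17.0 in mutants, without overlap, and the log2 fold change of -1.33 (SE 0.37) missed the threshold (edgeR adjusted p = 0.0862). DESeq2 called it (adjusted p = 0.0352). So did edgeR with a run term (the run of library numbers entered as a covariate, 0.0242), with libraries 10 to 13 alone (0.0162) and without control 3 (0.0168). Only these 4 of 16 alternative fits called it. Among those that did not were limma-voom (0.155) and edgeR with Y-linked expression as a covariate (0.156, log2 fold change -0.97). Leaving out any 1 mutant did not bring a call either (0.213 to 0.238). Markers of its usual cell type were lower in the same libraries: of 8 markers of MGE-derived interneurons, 5 fell and 1 rose, and their summed level was 453 to 497 CPM in controls and 247 to 279 CPM in mutants. *Sst* was at 4564 to 6248 normalized counts in controls and at 542 to 670 in mutants, and *Pvalb* at 753 to 1094 and 80.5 to 143. Their part in the values of *Chrna2* was not tested.

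The subunits *Chrna3* and *Chrna5*, which share a gene cluster and assemble together in habenula and ganglia, were both lower in every mutant library, without a call. *Chrna3* counted 59.2, 48.2, 57.6 and 49.8 in controls and 41.2, 38.3 and 39.8 in mutants (log2 fold change -0.43, SE 0.19, edgeR adjusted p = 0.269). *Chrna5* counted 84.4, 107, 101 and 86.4 in controls and 66.1, 71.4 and 76.7 in mutants (log2 fold change -0.41, SE 0.17, edgeR adjusted p = 0.236). *Chrnb4*, the third gene of the cluster, counted 3.01 to 12.5 in controls and 10.5 to 17.99 in mutants, overlapping, and reached 10 counts in 2 of 4 control libraries and 3 of 3 mutant libraries. *Chrna7*, which makes the fast calcium-permeable channel of hippocampal interneurons and pyramidal cells, counted 483, 301, 514 and 526 in controls and 536, 653 and 614 in mutants; the genotypes did not overlap, though mutant 5 exceeded control 11 by little, and the log2 fold change was 0.40 (SE 0.19, edgeR adjusted p = 0.32). *Chrna9* and *Chrna10*, known from hair cells of the inner ear, had no more than 1 and 10 counts in any library and were not tested.

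Of the 12 serotonin receptors tested, 1 fell and none rose. *Htr1a*, which couples to inhibitory G proteins and opens potassium channels in hippocampal and cortical pyramidal cells, counted 824, 704, 762 and 648 in controls and 316, 360 and 308 in mutants. Mutants averaged 44.7% of controls, and the highest mutant was well below the lowest control. The log2 fold change was -1.16 (SE 0.12, edgeR adjusted p = 0.00148), and the runs gave -1.27 (libraries 2, 3 and 5) and -1.08 (libraries 10 to 13). *Htr1a* lies on chromosome 13 (105443693 to 105448133, plus strand), shares no exon base with another gene and no 36-base word with another transcript.

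*Htr2a*, the receptor coupled to phospholipase C on cortical pyramidal cells and the main target of hallucinogens, moved the other way without reaching the threshold. It counted 334, 384, 468 and 561 in controls and 588, 949 and 852 in mutants, so that mutant 5 lay just above control 11. The log2 fold change was 0.87 (SE 0.21, edgeR adjusted p = 0.055), and 9 of 16 alternative fits called it, among them DESeq2 (0.00173), the edgeR fits with the run term (0.00228) and with a Y-linked expression term (0.0274). Leaving out control 11 or mutant 5 also brought it past the threshold (0.0439 and 0.0355). Leaving out any other library moved it away (0.103 to 0.201), and RLE scaling (0.0559) and limma-voom (0.0574) did not call it.

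*Htr5a* counted 753, 543, 769 and 840 in controls and 849, 1010 and 913 in mutants, all mutants above all controls, with a log2 fold change of 0.35 (SE 0.15, edgeR adjusted p = 0.257). *Htr1f*, a presynaptic inhibitory receptor and target of migraine drugs, counted 65.8, 57.2, 72.9 and 80.3 in controls and 41.2, 53.8 and 50.2 in mutants, all mutants below all controls, with a log2 fold change of -0.51 (SE 0.20, edgeR adjusted p = 0.218). The other 8 tested receptors overlapped between genotypes, with log2 fold changes from -0.47 (*Htr4*, SE 0.34) to 0.86 (*Htr2b*, SE 0.72). *Htr2b* is the least certain of them, since it reached 10 counts in 1 of 4 control libraries and 3 of 3 mutant libraries. *Htr2c*, on the X chromosome and strong in choroid plexus, counted 731 to 1167 in controls and 612 to 984 in mutants, with a log2 fold change of -0.07 (SE 0.21). *Htr3b* had no more than 4 counts in any library and was not tested. Of the exon bases of *Htr1b*, the autoreceptor of serotonin terminals, 18.04% overlap the antisense RNA *D430036J16Rik*, which was at 54.8 to 104 normalized counts in controls and 117 to 164 in mutants, and *Htr1b* itself was at 384 to 426 and 367 to 541.

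**Figure D2:**
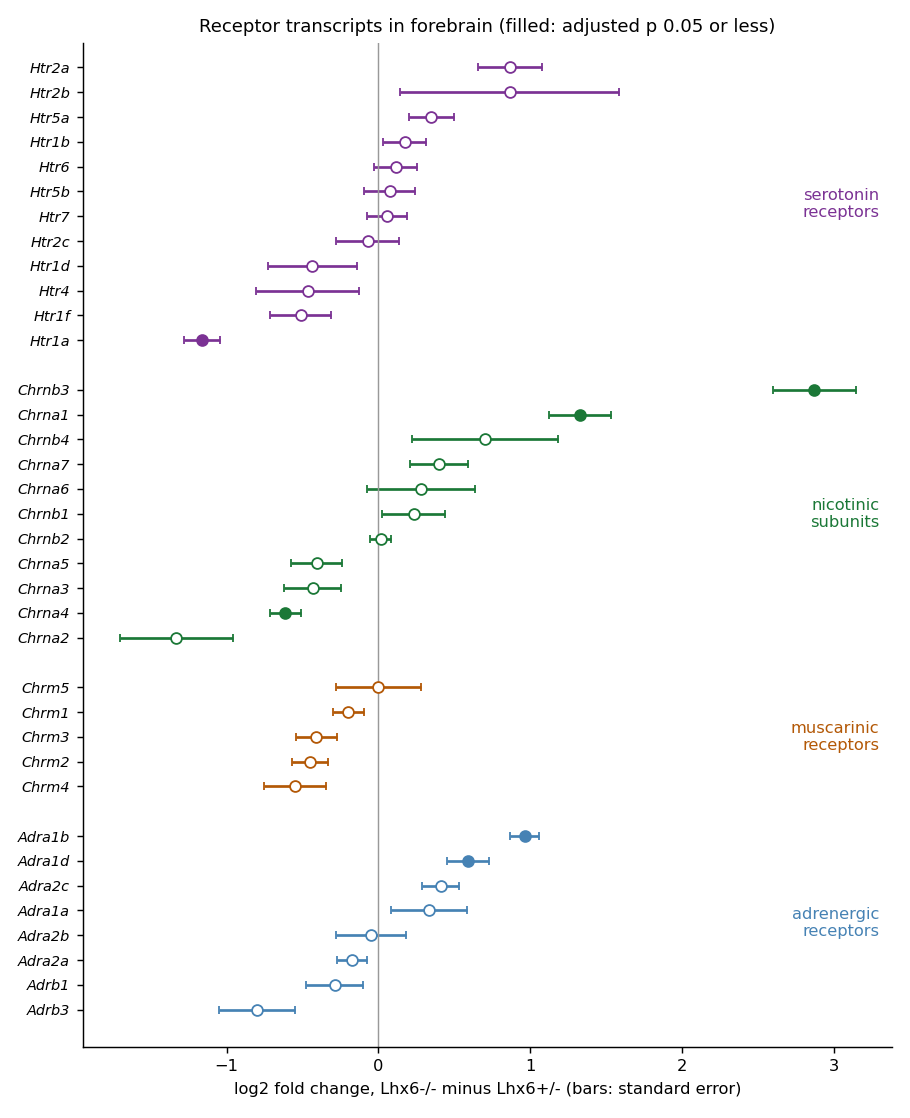
Log2 fold change of mutant over control libraries (horizontal axis, 0 marked by a line; bars are the SE of edgeR's fit) for 36 of the 37 tested receptor genes, grouped by family and ordered within it; filled symbols have an adjusted p of 0.05 or less. Values ran from -1.33 for *Chrna2* to 2.87 for *Chrnb3*, and all 5 muscarinic receptors lay at or below 0.

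Of the 5 muscarinic receptors, *Chrm1* to *Chrm4* had a negative log2 fold change and *Chrm5* was at -0.00. The median was -0.41, and none was called. *Chrm1*, the main muscarinic receptor of pyramidal cells and the member with the highest level per length in controls (34.3 ± 3.40 CPM per kilobase), counted 8515, 6772, 8181 and 8259 in controls and 6532, 7534 and 6685 in mutants. Control 3 lay within the mutants, and the log2 fold change was -0.20 (SE 0.10, edgeR adjusted p = 0.37). *Chrm2*, the autoreceptor of cholinergic terminals that is also made by interneurons, counted 450, 376, 482 and 488 in controls and 321, 331 and 332 in mutants, with all mutants below all controls (log2 fold change -0.45, SE 0.12, edgeR adjusted p = 0.0744). *Chrm3* counted 1629, 1454, 1886 and 1968 in controls and 1122, 1488 and 1309 in mutants, where mutant 12 stood above control 3 (log2 fold change -0.41, SE 0.13, edgeR adjusted p = 0.139). *Chrm4*, the inhibitory receptor of striatal projection neurons, counted 742, 662, 859 and 953 in controls and 404, 717 and 526 in mutants, with mutant 12 above control 3 (log2 fold change -0.55, SE 0.20, edgeR adjusted p = 0.19). *Chrm5*, known from dopaminergic neurons, counted 22.1 to 35.1 in controls and 21.8 to 32.1 in mutants, with a log2 fold change of -0.00 (SE 0.28).

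Whether *Chrm2*, *Chrm3* and *Chrm4* were called depended on the fit. With the run term, edgeR called 12 of the 37 members (32.4%, beside 11.2% of all genes tested), the 6 already named with *Chrm2* (adjusted p = 0.0171), *Chrm3* (0.00586), *Chrm4* (0.0138) and *Chrna2* lower, and *Htr2a* and *Adra2c* (0.0174) higher. Libraries 10 to 13 alone gave the same 6 further genes, but there controls low in Y-linked RNA were set against mutants that held it. With the Y-linked term, edgeR called *Htr2a* (0.0274) and *Adra2c* (0.0421) but not *Chrm2* (0.123), *Chrm3* (0.225), *Chrm4* (0.286) or *Chrna2* (0.156). DESeq2 called 10 members (27.8% of those with an adjusted p, beside 8.81% of all genes tested), adding *Chrm2* (0.0125) and *Chrna2* lower and *Htr2a* and *Adra2c* (0.0326) higher. Of 8 markers of striatal projection neurons, where *Chrm4* is strong, 2 rose (*Penk* and *Tac1*) and none fell, and their summed level was 369 to 560 CPM in controls and 537 to 774 CPM in mutants.

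Of the 9 adrenergic receptors, 2 rose and none fell, and both that rose belong to the alpha1 group, which couples to phospholipase C. *Adra1b* (chromosome 11, 43774606 to 43901210, minus strand) counted 780, 781, 704 and 786 in controls and 1561, 1609 and 1292 in mutants. Mutants averaged 195% of controls without overlap, and the log2 fold change was 0.96 (SE 0.10, edgeR adjusted p = 0.00135), and the runs gave 1.00 (libraries 2, 3 and 5) and 0.96 (libraries 10 to 13). *Adra1d* (chromosome 2, 131545850 to 131562283, minus strand) counted 896, 669, 952 and 1015 in controls and 1263, 1441 and 1286 in mutants, again without overlap. Its log2 fold change was 0.59 (SE 0.14) at an edgeR adjusted p of 0.0484, and the call was lost without control 2 (0.0898), control 10 (0.0868), control 11 (0.053), mutant 5 (0.0933), mutant 12 (0.178) or mutant 13 (0.149), with log2 fold changes from 0.53 to 0.66. Of its exon bases, 7.74% overlap the antisense RNA *Gm14285*, which was at 20.1 to 28.8 normalized counts in controls and at 31.1 or more in mutants, far below *Adra1d*. *Adra1a*, the remaining alpha1 receptor, counted 264 to 609 in controls and 533 to 659 in mutants, overlapping (log2 fold change 0.33, SE 0.25, edgeR adjusted p = 0.566).

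The alpha2 receptors, which inhibit transmitter release, did not pass the test. *Adra2c* counted 512, 580, 645 and 683 in controls and 730, 856 and 825 in mutants, all mutants above all controls (log2 fold change 0.41, SE 0.12, edgeR adjusted p = 0.102). *Adra2a*, the main autoreceptor of noradrenergic fibres, counted 1379, 1157, 1176 and 1080 in controls and 1082, 1118 and 986 in mutants, overlapping (log2 fold change -0.17, SE 0.10, edgeR adjusted p = 0.428). *Adra2b* was at 27.8 to 38.6 and 27.5 to 33.5, also overlapping.

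Among beta receptors, which raise cAMP, *Adrb1* counted 963, 765, 1078 and 1092 in controls and 619, 1032 and 742 in mutants, with mutant 12 inside the control range (log2 fold change -0.29, SE 0.19, edgeR adjusted p = 0.493). *Adrb3*, the receptor of fat cells, counted 47.2, 30.1, 47.0 and 39.6 in controls and 22.0, 22.8 and 25.6 in mutants, all mutants below all controls (log2 fold change -0.80, SE 0.25, edgeR adjusted p = 0.12). Its counts are less certain than the others, since 21.2% of its 36-base words also occur in transcripts of other genes.

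Levels can be compared between genes only per length, here as CPM per kilobase of exon. In controls the highest were *Chrm1*, *Chrm4* (15.7 ± 2.50), *Adra1d* (13.05 ± 2.23), *Adrb1* (10.98 ± 1.70), *Chrm3* (10.8 ± 1.47) and *Chrna4* (10.4 ± 1.19), the last 3 lying within 1 SD of each other. Among serotonin receptors, *Htr1a* (4.64 ± 0.476), *Htr2a* (4.13 ± 0.940) and *Htr5a* (3.79 ± 0.666) led in controls, each differing from the next by less than the larger SD. In mutants *Htr2a* (7.52 ± 1.76) and *Htr5a* (4.82 ± 0.424) led, and *Htr1a* (2.07 ± 0.178) stood below *Htr7* (3.08 ± 0.329) and *Htr1b* (2.72 ± 0.518), at a level near that of *Htr6* (2.24 ± 0.230). Among adrenergic receptors, *Adra1b* stood below *Adrb1* and *Adra2a* (8.85 ± 0.940) in controls (6.33 ± 0.324) and above both in mutants (12.3 ± 1.42, beside 8.99 ± 2.39 and 7.84 ± 0.505), where *Adra1d* (19.7 ± 1.43) led. Among nicotinic subunits, *Chrna4* stood above *Chrnb2* (8.54 ± 0.0881) in controls and below it in mutants (6.77 ± 0.240 and 8.62 ± 0.420).

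**Figure D3:**
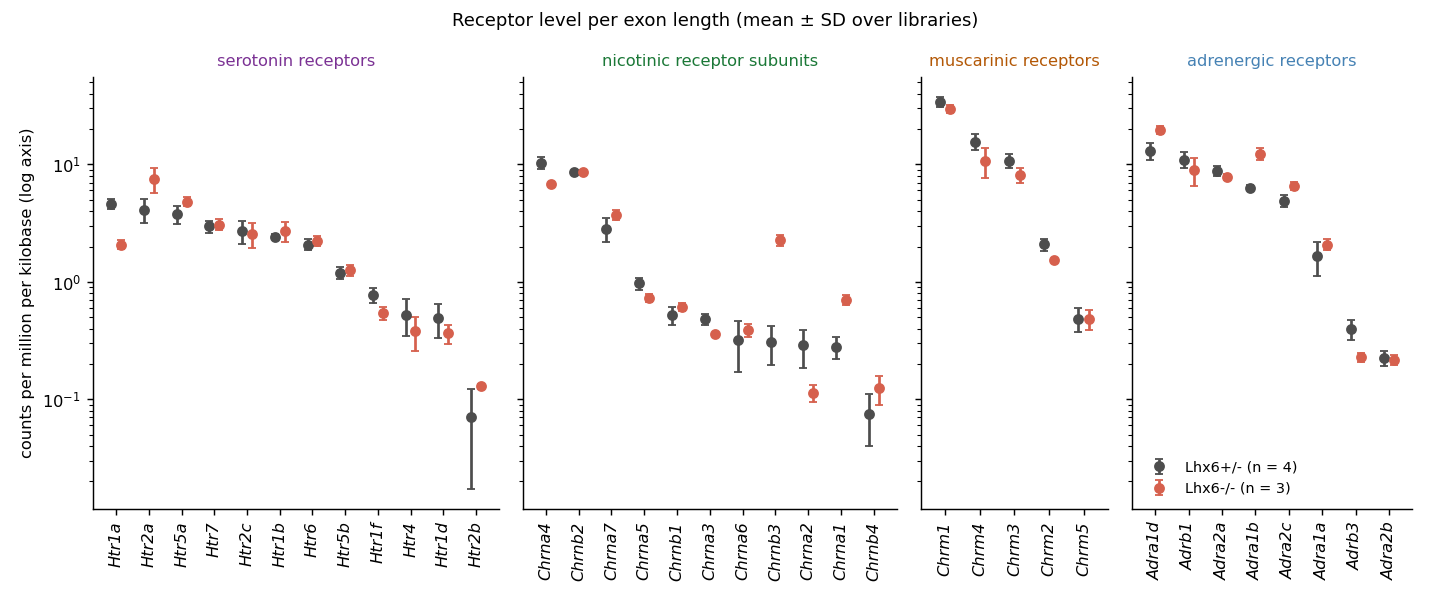
Level of 36 of the 37 tested receptor genes in CPM per kilobase of exon (log axis), as mean and SD over 4 *Lhx6*+/- (grey) and 3 *Lhx6*-/- (red) libraries, ordered within each family by the control level. *Chrm1* was highest in both genotypes, at 34.3 in controls and 29.9 in mutants, and *Chrnb3* moved from 0.310 to 2.28.

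The direction of the genotype difference could be read separately in libraries 2, 3 and 5 and in libraries 10 to 13, which share no library. It was the same in both for 31 of the 37 members (83.8%, beside 70.3% of all genes tested) and for all 6 that rose or fell. The comparison within libraries 2, 3 and 5 rests on 1 mutant pool, and that within libraries 10 to 13 sets controls low in Y-linked RNA against mutants that held it.

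**Figure D4:**
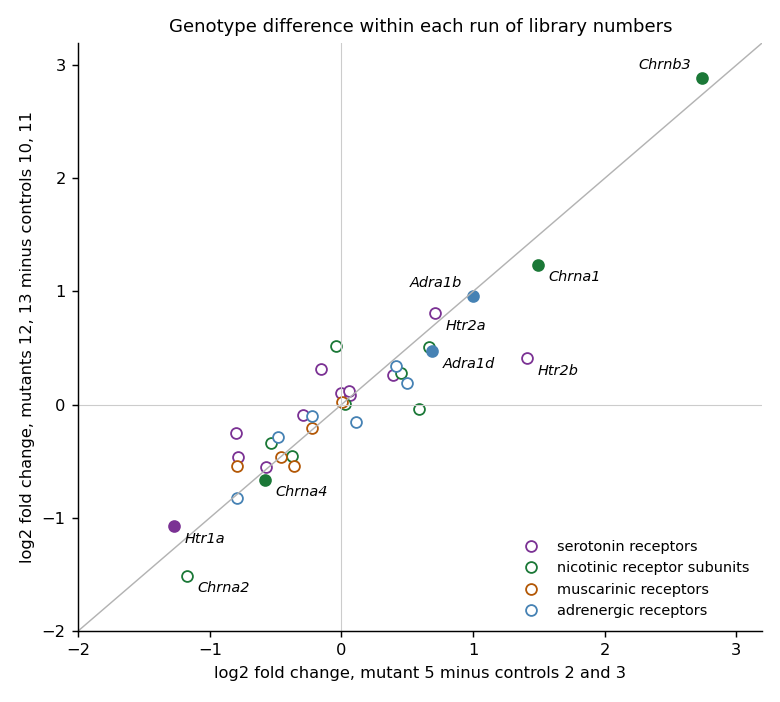
Log2 fold change of mutant 5 over controls 2 and 3 (horizontal axis) against that of mutants 12 and 13 over controls 10 and 11 (vertical axis) for 36 of the 37 tested receptor genes, coloured by family and filled where called in all 7 libraries; the diagonal marks equal values. The 6 called genes lay near the diagonal, from *Htr1a* (-1.27 and -1.08) to *Chrnb3* (2.74 and 2.89).

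Of 17 genes that make, carry or break down the transmitters of these receptors, 15 were tested, 4 rose and none fell, with a median log2 fold change of 0.37. *Th*, the rate-limiting enzyme of catecholamine synthesis, counted 42.8 to 62.0 in controls and 292 to 495 in mutants (log2 fold change 2.83, SE 0.21, edgeR adjusted p = 0.00044). *Ache*, which breaks down acetylcholine, counted 2042 to 2683 in controls and 3751 to 4749 in mutants (0.84, SE 0.12, edgeR adjusted p = 0.00771). *Maoa*, a monoamine oxidase (0.37, SE 0.08, edgeR adjusted p = 0.0411), and *Pnmt*, which makes adrenaline (1.504, SE 0.31, edgeR adjusted p = 0.0308), also rose, but each lost its call with the Y-linked term (0.0765 and 0.0649) and without control 2, 10 or 11 or any 1 mutant (adjusted p up to 0.177 and 0.125), and *Maoa* also without a filter on low counts. *Chat*, which makes acetylcholine, overlapped (34.5 to 80.3 and 29.7 to 79.7). The cell bodies of serotonin and noradrenaline neurons lie outside the forebrain, and their defining genes *Fev*, *Slc6a4* and *Slc6a2* were below the filter, at no more than 12.5 normalized counts. Of 8 markers of these neurons 3 were tested and none was called, with a summed level of 3.57 to 4.47 CPM in controls and 4.97 to 5.87 CPM in mutants. Of 6 markers of forebrain cholinergic neurons 1 rose, *Lhx8* (1.38, SE 0.30, edgeR adjusted p = 0.037), and their summed level was 6.89 to 11.7 CPM in controls and 8.12 to 15.8 CPM in mutants. *Lhx8* lost its call with the Y-linked term and without control 2, 10 or 11 or any 1 mutant (adjusted p up to 0.149).

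Genes for proteins that chaperone or dampen nicotinic receptors were tested singly. Of 12 listed, 9 passed the filter, 2 fell and none rose, with a median log2 fold change of -0.21. *Lypd1* and *Lypd6* are Ly6 proteins anchored in the membrane that bind nicotinic receptors. *Lypd1* counted 4692, 4684, 4383 and 3583 in controls and 1640, 1506 and 1791 in mutants (log2 fold change -1.40, SE 0.12, edgeR adjusted p = 0.000659). *Lypd6* counted 900, 867, 1031 and 943 in controls and 422, 523 and 549 in mutants (log2 fold change -0.91, SE 0.12, edgeR adjusted p = 0.00474). Both held under all 16 alternatives, with no overlap between genotypes. *Lynx1*, the best known brake on these receptors, was at 17652 to 19325 in controls and 20736 to 24169 in mutants (log2 fold change 0.30, SE 0.08, edgeR adjusted p = 0.0862), and the chaperone *Ric3* overlapped (2051 to 2536 and 2247 to 2446).

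Downstream of the receptors, 25 G proteins, effectors and regulators were tested, 2 fell and none rose, with a median log2 fold change of -0.05. *Kcnj9*, a subunit of the potassium channels that inhibitory G proteins open, counted 4954 to 5600 in controls and 2498 to 2780 in mutants (-1.01, SE 0.08, edgeR adjusted p = 0.000581), while its partners *Kcnj3* and *Kcnj6* overlapped. *Adrbk2*, a kinase that desensitizes receptors, counted 3227 to 3875 in controls and 2386 to 2646 in mutants (-0.47, SE 0.09, edgeR adjusted p = 0.0188), and its call was lost without control 10, mutant 12 or mutant 13 (adjusted p up to 0.111). The alpha subunits *Gnaq*, *Gnao1*, *Gnai1* and *Gnas* had log2 fold changes from -0.11 to 0.08.

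Other markers moved with genotype in the same libraries. Of 9 markers of interneurons from the caudal ganglionic eminence, *Htr3a* among them, 4 rose (*Vip*, *Adarb2*, *Ndnf* and *Cck*) and none fell, and their summed level was 478 to 527 CPM in controls and 735 to 758 CPM in mutants. Of 8 astrocyte markers 1 rose, *Gfap* (log2 fold change 1.95, SE 0.10, edgeR adjusted p = 7.41e-05), with a summed level of 5074 to 7663 CPM and 8472 to 9962 CPM. Of 6 endothelial and 7 microglial markers none was called, and the summed levels were 193 to 208 and 245 to 251 CPM for endothelium and 370 to 374 and 309 to 364 CPM for microglia. The summed level of 6 forebrain markers was 2166 to 2483 CPM in controls and 2474 to 2985 CPM in mutants, overlapping. Thalamus, cerebellum and autonomic ganglia had none called of 6, 2 and 2 tested. Summed thalamus markers were at 140 to 190 CPM in controls and 154 to 161 CPM in mutants, overlapping. Without mutant 12 or mutant 13 the calls of *Vip*, *Adarb2*, *Ndnf* and *Penk* were lost (adjusted p up to 0.0804), as was that of *Tac1* (up to 0.151), while *Gfap*, *Cck*, *Myh8*, *Gpr151*, *Sst* and *Pvalb* kept theirs in every alternative. The part of any of these cell types in the receptor differences was not tested.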

How the data were processed

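Forebrain RNA of 4 control (*Lhx6*+/-) and 3 mutant (*Lhx6*-/-) pools was read as 36-base single ends. The authors trimmed reads with CutAdapt 1.9.1, aligned them to the GRCm38 transcriptome (Ensembl annotation) with Bowtie2 2.2.9 and deposited expected counts per gene from RSEM 1.2.31, which shares reads between genes; 32.9 to 36.0% of values per library were not whole, and they were rounded. The authors' DESeq2 table was used for gene symbols alone; its fold changes, p-values and scores were not used. Per the file headers, exon positions come from the deposited annotation (names equal for 99.998% of genes).

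R 4.3.3 with edgeR 4.0.16 (TMM, quasi-likelihood test, Benjamini-Hochberg adjustment) was the test. A count of 0 allows 3 counts for counting error only, or 0.0788 to 0.0921 CPM when scaled to the library's total without that adjustment. Replicate pairs differed by 9.93 to 70.4 in chi-square per degree of freedom, so each library counted as 1 replicate. Column names give the genotype with a library number, so sex and RNA quality labels entered no fit; 0 columns of per-sample values were left out. Alternatives were DESeq2 1.42.0, limma-voom (limma 3.58.1), RLE and upper quartile scaling, other filters, covariates, libraries 10 to 13 alone and each library left out. Values of some genes are not reported here. The tests were tried on simulated data. Words of 36 bases shared between genes were counted in GENCODE transcripts, also of GRCm38, and promoter windows are from RefSeq. Receptors were chosen by gene symbol, and the members and lists were chosen with earlier results of these data known. Values in each library are given for members that were called, had an unadjusted p of 0.05 or less, were among the 3 highest of their family or had a log2 fold change beyond 1.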

Additional observations from a re-analysis of the deposited data

Results flagged for a closer look

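In 2 of the 37 groups of 4 control libraries looked at, 1 library stood apart from the other 3; chance alone sets a library apart like this in about 1 in 20 groups. Control library 10 was low for *Adra1b*, at 704 normalized counts beside 780 to 786 in the other controls, its gap being 0.928 of the range. Control library 3 was low for *Chrna4*, at 1534 normalized counts beside 1925 to 1982 in the others, its gap being 0.872 of the range. In both cases the control library stayed on its own side of the mutants. Without control 10, *Adra1b* kept its call (log2 fold change 0.93, edgeR adjusted p = 0.00706), and without control 3, *Chrna4* kept its call (-0.69, edgeR adjusted p = 0.00225).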

How the results depend on the processing

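*Chrnb3*, *Chrna1*, *Adra1b* and *Htr1a* were called in all 16 alternative fits. The number of members that rose was 4, and between 3 and 6 in the alternatives. The number that fell was 2 as reported, 4 with DESeq2, 6 with a run-of-numbers term and 6 with libraries 10 to 13 only, and leaving out 1 library gave 1 to 4 (1 without any 1 mutant, where *Chrna4* was lost, and 4 without control 3, where *Chrm2* and *Chrna2* were added); for members that rose it gave 3 to 4. Over all genes, 954 were called, 1734 with DESeq2, 2205 with the run term and 1867 with libraries 10 to 13 only, and leaving out 1 library gave 302 to 971. The cause of these shifts was not tested, beyond the loss of libraries where 1 or more was left out. The log2 fold change of *Chrnb2* turned from 0.01 to -0.015 without mutant 12, far from the threshold, and ranged up to 0.053 (without mutant 13). Of the values of single genes under the alternatives, 426 kept direction and side of the threshold, 25 passed it, 27 lost it and 1 turned direction. Scaling by RLE or upper quartile moved the median of all genes by no more than 0.025 on the log2 scale. No paired analysis was possible because the columns carry library numbers and no replicate numbers, so no pool of 1 genotype can be matched to a pool of the other. The 6 members below the filter had no more than 10 counts in any library, and differences between genotypes could not be detected for them at this depth.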

Other observations

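Some ratios of levels per length within a library, chosen after the values were seen and given without a test, did not overlap between genotypes. *Chrna4* over *Chrnb2* was 1.01 to 1.30 in controls and 0.748 to 0.828 in mutants. *Chrnb3* over *Chrna6* was 0.824 to 1.27 in controls and 5.54 to 6.36 in mutants, with the lowest control value in control 3. *Chrna1* over *Chrnb1* was 0.392 to 0.769 and 1.09 to 1.18. *Htr2a* over *Htr1a* was 0.607 to 1.29 and 2.78 to 4.14.

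The metabotropic receptors were also sorted by the G protein they mainly use, from textbook knowledge and after the values were known; *Htr5b*, whose coupling is less certain, was put in no class. Of 9 receptors tested that use Gq, 5 had a positive log2 fold change, 2 rose (*Adra1b* and *Adra1d*) and the median was 0.33. Of 10 that use Gi, 7 had a negative value, 1 fell (*Htr1a*) and the median was -0.30. Of 6 that use Gs, 4 had a negative value, none was called by edgeR and the median was -0.18. Over all genes tested, 47.8% had a positive value and the median was -0.01. Within Gq, the muscarinic receptors *Chrm1* and *Chrm3* and the serotonin receptor *Htr2c* had negative values, and *Chrm5* was at -0.00. The classes were therefore not uniform.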
